A study of Mus musculus with 10 samples.

Results

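The kinesin motor genes were described in mRNA from mouse cortical neuron cultures that received either a control virus or one carrying Gata1, a zinc finger transcription factor of the blood lineages. Members were the genes whose symbol follows the Kif or Kifc naming pattern with a number and at most 1 further letter. This gave 41 kinesins of 40904 gene symbols, each with 1 row in the tables. Of these, 39 had a mean of at least 1 FPKM over both libraries, as did 13740 genes in all. FPKM is the number of sequenced fragments scaled to transcript length and to the size of the library, so levels can be compared between genes. The other members, Kif2b and Kif12, were listed at 0 in both libraries. Kif14 lay just inside the limit, at 1.01 FPKM with the control virus and 0.999 FPKM with Gata1. Pseudogenes, antisense genes and kinesins with other names, such as Cenpe, are outside the pattern.

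The cells, which the labels call neurons, came from embryonic day 14 cortex of the ICR mouse strain and were collected at day 11 in vitro. The mRNA held the neuron marker Map2 at 240 FPKM with the control virus and 236 FPKM with Gata1. It also held the astrocyte marker Gfap (887 and 897 FPKM) and the progenitor marker Vim (1280 and 1357 FPKM), so levels below are those of a mixed culture. Both groups received an adeno-associated virus, labelled AAV-Control and AAV-Gata1. The promoter that drives Gata1 and the share of cells reached by the virus are not stated in the labels used. Each group has 1 mRNA library, so no difference below has a replicate check, no test was made and the fragments behind a value are unknown. Gata1 was listed at 0 with the control virus and at 2.07 FPKM with Gata1, which goes the way of the labels. Summed FPKM was 476198 and 476656, and 13748 and 13704 genes reached 1 FPKM.

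Kinesins are motor proteins that use ATP to move along microtubules or to take them apart. In neurons, most cargo motors walk toward the plus ends of microtubules and carry vesicles, mitochondria and proteins from the cell body into axons and dendrites, while dynein moves cargo the other way in axons. In dividing cells another set of kinesins builds the spindle, moves chromosomes and completes cytokinesis. Neurons have left the cell cycle, although several mitotic kinesins have also been described at work on microtubules in young neurons. The members were therefore divided by known role into 15 cargo transport kinesins, 14 mitotic kinesins and 12 others, which act in cilia, in microtubule disassembly, in signalling or in transport toward minus ends.

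The sequence around the start of the genes differed in letter content between mitotic and transport kinesins. RefSeq promoter windows of 300 bases, from 250 before to 50 after the annotated start in build GRCm38.p6, were at hand for 33 of the 41 kinesins, 4 of them with 2 windows. They were searched on both strands for TTTGAA, the core of the cell cycle genes homology region (CHR), through which the DREAM and MuvB complexes are known to time transcription to late cell cycle phases. Of 13 mitotic kinesins with a window, 11 (84.6%) held the CHR letters, against 1 of 11 cargo transport kinesins (9.09%) and 2 of 9 others (22.2%). Of all 27025 genes with a window 20.2% held them, and of the 9858 with a mean of at least 1 FPKM 13.6% did. Within 50 bases of the start the letters were found in 9 of the 13 mitotic kinesins (69.2%), against 5.72% of all genes. In 6 of these 9 the match lay after the start, and upstream of it 5 of the 13 mitotic and 1 of the 11 transport kinesins held the letters. The share of all genes with the letters upstream was not counted, so these upstream counts have no background. A match is a description of letters, and binding was not measured in the mRNA libraries.

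The matches closest to the start are shown for those 9 mitotic kinesins and for the 1 transport kinesin, in 30 bases on the strand of the gene, 5′ to 3′. Capitals mark the CHR letters or their reverse complement.
Kif11: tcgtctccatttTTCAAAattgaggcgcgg (chr19:37376351-37376380, plus strand)
Kif15: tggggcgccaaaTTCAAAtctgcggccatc (chr9:122951050-122951079, plus strand)
Kif22: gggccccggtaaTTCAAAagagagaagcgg (chr7:127042420-127042449, minus strand)
Kif23: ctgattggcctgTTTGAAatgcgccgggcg (chr9:61946780-61946809, minus strand)
Kif18b: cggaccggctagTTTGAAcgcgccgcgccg (chr11:102925104-102925133, minus strand)
Kif20b: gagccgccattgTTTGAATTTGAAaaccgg (chr19:34922353-34922382, plus strand)
Kif4: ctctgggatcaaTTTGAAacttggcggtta (chrX:100626072-100626101, plus strand)
Kifc1: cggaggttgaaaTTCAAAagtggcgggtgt (chr17:33890615-33890644, minus strand)
Kifc5b: cggaggttgaaaTTCAAAagtgactggtgt (chr17:26917108-26917137, plus strand)
Kif1a: tttgacagcctcTTTGAAcattgctcctaa (chr1:93082507-93082536, minus strand)
In Kif11 and Kif15 the letters covered bases −19 to −14 from the start, in Kif22 bases −17 to −12, and in Kif23 bases 3 to 8 of the transcript. Kif20b held them in tandem, at bases 8 to 13 and 14 to 19. The Kifc1 and Kifc5b windows differed at 2 of 30 bases, and each gene is counted on its own in the motif shares. Fragments of similar genes could be assigned to either, but the transcripts of this pair were not compared. The match of Kif1a lay in the 2nd of its 2 windows, and its other window held none. Upstream of the start, the 2nd window covers chr1:93082481-93082730 and the other chr1:93101875-93102124. On this minus strand the 2nd start lies downstream of the first. Which of these starts was used in the culture was not measured.

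The CCAAT box, which the factor NF-Y binds, often stands a short way upstream of a CHR in cell cycle promoters. Its letters CCAAT were found in 9 of 13 mitotic kinesins (69.2%), 3 of 11 transport kinesins (27.3%) and 41.1% of all genes. Both motifs stood in 8 mitotic kinesins (61.5%), in no transport kinesin and in 7.97% of all genes, and in none of the kinesin windows did their letters overlap. Order and spacing were not part of this count. In Kif14 the CCAAT box (−92 to −88) lay downstream of the CHR (−228 to −223). The 250 bases upstream of Kif11, the spindle motor Eg5, show the pair, while those of Kif5c, a neuronal cargo motor, hold neither. Capitals mark the CCAAT box and the CHR, each as its reverse complement.
Kif11: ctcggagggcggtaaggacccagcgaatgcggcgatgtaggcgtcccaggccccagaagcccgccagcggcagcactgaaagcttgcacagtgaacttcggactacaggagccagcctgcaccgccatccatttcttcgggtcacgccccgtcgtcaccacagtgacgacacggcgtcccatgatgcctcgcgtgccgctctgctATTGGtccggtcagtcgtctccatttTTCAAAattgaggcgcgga (chr19:37376132-37376381, plus strand)
Kif5c: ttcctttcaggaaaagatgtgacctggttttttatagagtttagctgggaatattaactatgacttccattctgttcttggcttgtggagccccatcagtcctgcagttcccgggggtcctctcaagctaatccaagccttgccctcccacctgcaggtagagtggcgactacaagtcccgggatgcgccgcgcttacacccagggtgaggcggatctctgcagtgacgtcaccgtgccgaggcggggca (chr2:49619036-49619285, plus strand)
In Kif11 the first base of the CHR lay 26 bases after that of the CCAAT box. Letters that GATA factors can bind, AGATAA or TGATAA on either strand, were found in 1 of the 33 kinesins with a window (3.03%), the mitotic kinesin Kif2c, against 21% of all genes and 11.6% of those with a mean of at least 1 FPKM. No match says only that these letters are not in these windows.

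**Figure D1:**
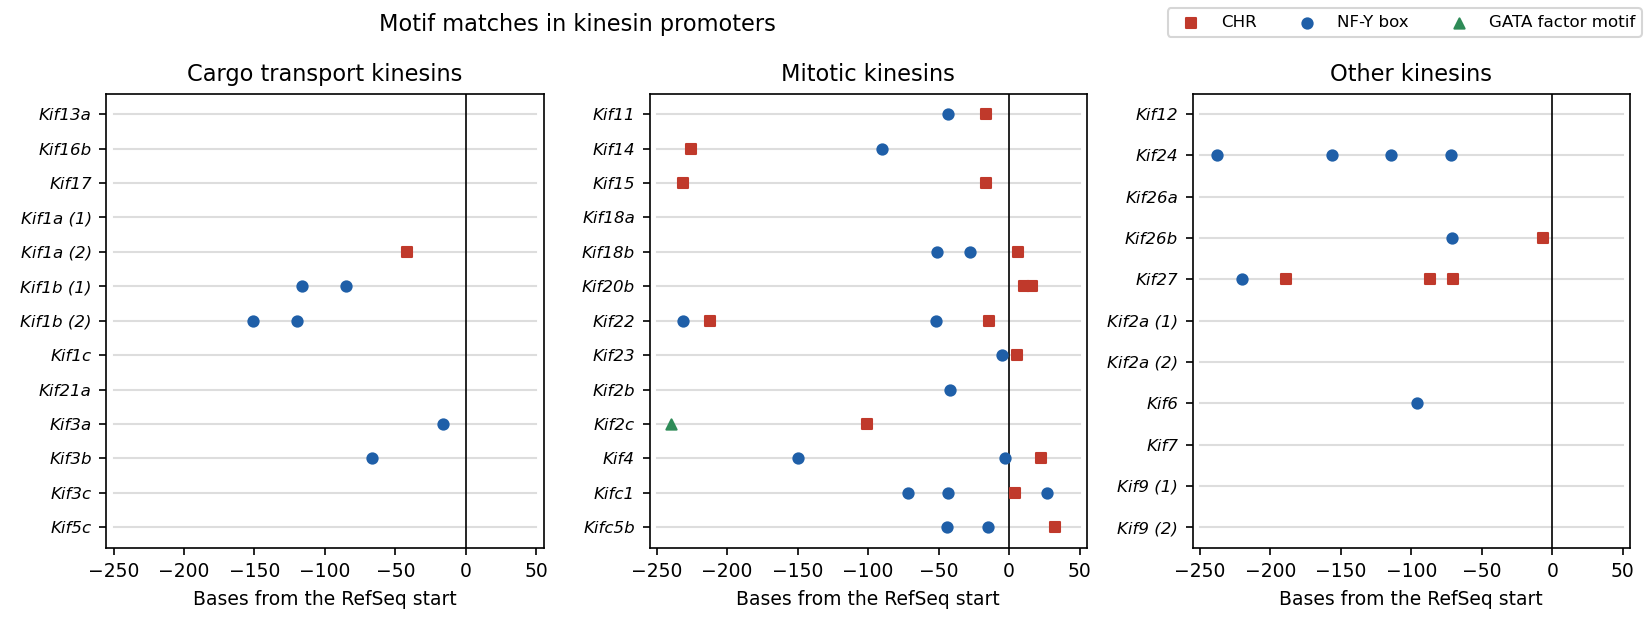
Positions of motif matches in the RefSeq promoter windows of 33 kinesins, in bases from the annotated start, with 1 line per window and (1) or (2) where a gene has 2 windows. Squares are the CHR, circles the CCAAT box that NF-Y binds and triangles the GATA factor motif. Of 13 mitotic kinesins, 9 hold a CHR within 50 bases of the start, against 1 of 11 cargo transport kinesins.

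Levels of transport and mitotic kinesins differed more than 10-fold in sum in the control. The 15 cargo transport kinesins summed to 584 FPKM with the control virus and 563 FPKM with Gata1, and the 14 mitotic kinesins to 56.98 and 57.8 FPKM. The sum of the transport genes was 10.3 times that of the mitotic genes with the control virus and 9.75 times with Gata1. In the control 12 of the 15 transport kinesins stood above the highest mitotic kinesin, and 11 did in the Gata1 library. These counts and sums rest on the division by role. Kif2a, a microtubule depolymerase placed among the others, stood above every mitotic kinesin, at 28.3 and 28.9 FPKM. The contrast would be smaller with Kif2a counted as mitotic, which was not tried. Both libraries held mitotic kinesin mRNA at a low level, in a culture whose mRNA also held the proliferation gene Mki67 at 8.23 and 7.78 FPKM. Which cells of the culture it came from was not measured.

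**Figure D2:**
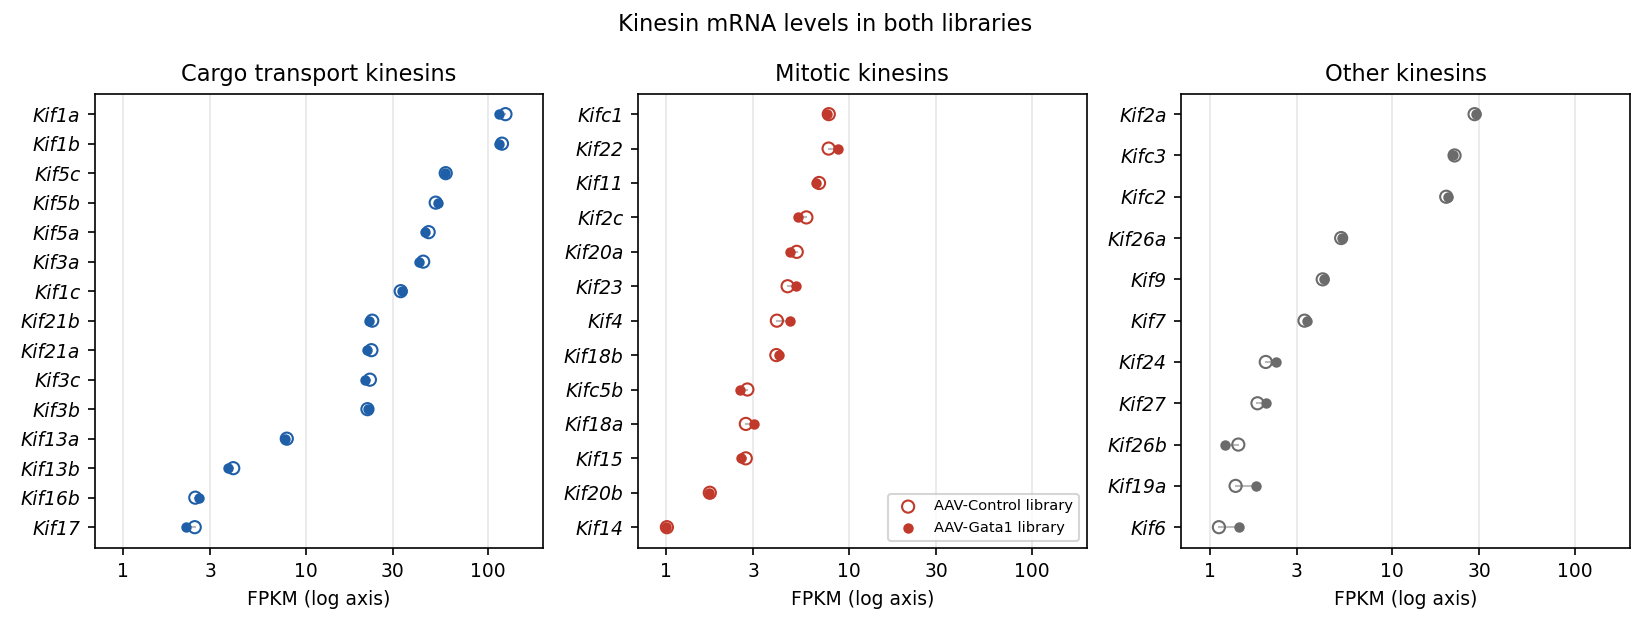
FPKM of the 39 kinesins with a mean of at least 1 FPKM, on a log axis, in the AAV-Control library (open circles) and the AAV-Gata1 library (filled circles), by role. The pair of points of each gene lie close beside the range between genes, which runs from 1.01 to 124 FPKM in the control.

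Over the whole family the libraries differed little. On the scale log2((Gata1 + 1)/(control + 1)) of the FPKM, used here for all log2 ratios and which understates differences of low genes, none of the 39 kinesins was 1.2-fold apart, against 7.27% of all genes. That share falls with level, from 17% of genes between 1 and 5 FPKM, where 19 of the kinesins lie, to 1.33% at 50 FPKM or more, where 4 lie. All 39 lay inside the 5th to 95th percentile of genes of their level class. Of the 39, 21 (53.8%) were lower in the Gata1 library, against 54.7% of all genes, and their median log2 ratio was −0.0051 (0.0075 with centring) against −0.013. At a limit of 1.1-fold, chosen after the values were seen, 5 of the 39 (12.8%) were apart, namely Kif4, Kif22, Kif6, Kif19a and Kif26b, against 24.4% of all genes. The family's counts were thus near or under the background.

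**Figure D3:**
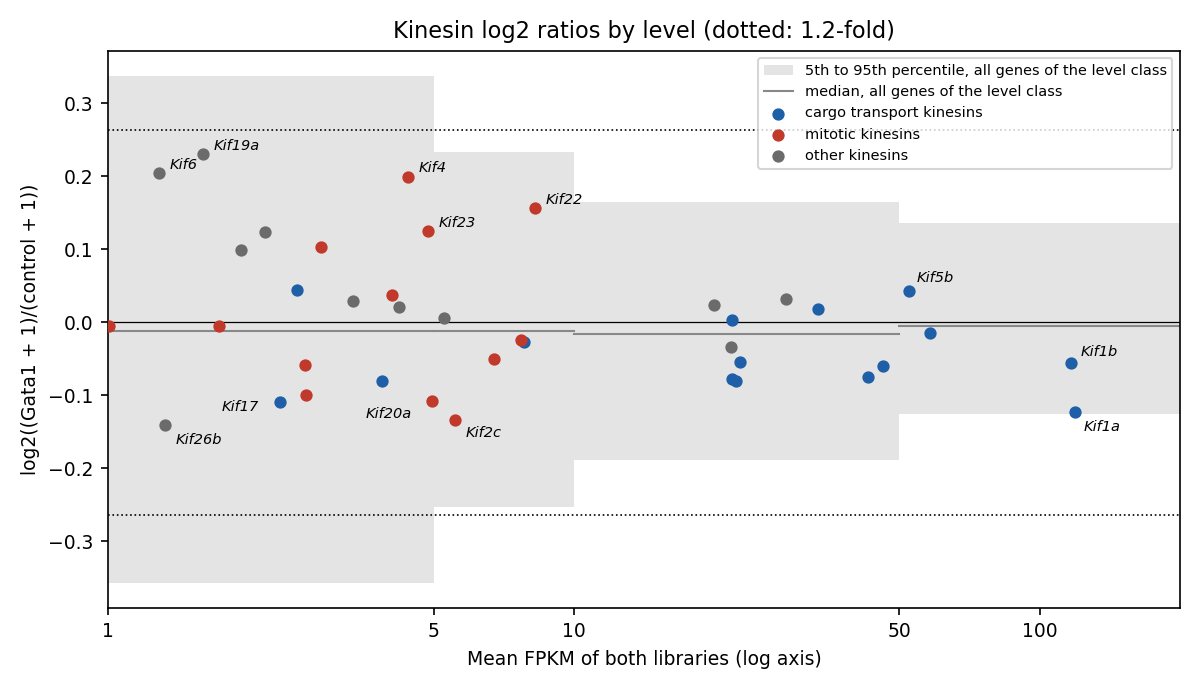
Log2 ratio of each of 39 kinesins against its mean FPKM (log axis), coloured by role. Grey bands span the 5th to 95th percentile of all genes in 4 level classes, grey lines their medians and dotted lines a 1.2-fold difference. No kinesin reaches the dotted lines, and Kif1a lies near the lower edge of its band, which stands at −0.13.

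Cargo transport kinesins were mostly lower by small amounts. Of the 15, 11 (73.3%) were lower in the Gata1 library, beside 54.7% of all genes, with a median log2 ratio of −0.055, and none was 1.2-fold apart, beside 7.27% of all genes. The ratios ran from −0.12 to 0.044. The sum of their FPKM differed by −3.65%. With the 8 core axonal motors alone (Kif1a, Kif1b, Kif3a to Kif3c and Kif5a to Kif5c), 6 were lower and the median was −0.058.

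The kinesin-3 motors Kif1a and Kif1b were the most abundant kinesins. Kif1a carries synaptic vesicle precursors and dense core vesicles along axons. Its level was 124 FPKM with the control virus and 114 FPKM with Gata1, a log2 ratio of −0.12 and the lowest of the transport group. Of the 1884 genes at 50 FPKM or more, 11.9% were at least as far apart in either direction. Kif1b, whose isoforms carry mitochondria or synaptic vesicle precursors, stood at 119 and 114 FPKM (−0.055). Kif1a and Kif1b together made up 33.2% of the kinesin FPKM with the control virus and 32.0% with Gata1. Kif1c, which carries dense core vesicles and integrin-bearing vesicles in many cell types, stood at 33.1 and 33.6 FPKM (0.019). The less abundant members of the class were Kif13a at 7.88 and 7.72 FPKM, Kif13b at 4.01 and 3.74 FPKM, and Kif16b, a motor of early endosomes, at 2.48 and 2.59 FPKM. Kif1a thus held the highest place with the control virus, while with Gata1 the pair were level (113.96 and 114.34 FPKM).

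The kinesin-1 heavy chains, which carry mitochondria and many vesicles, were close in level to each other. Kif5c stood at 58.5 FPKM with the control virus and 57.9 FPKM with Gata1, Kif5b at 51.5 and 53.1 FPKM, and Kif5a at 47.1 and 45.2 FPKM. Kif5a and Kif5c are enriched in neurons and were lower (−0.060 and −0.014), while Kif5b, present in most cell types, was higher (0.044). These are differences of background size, and Kif5c lay near the median of all genes (−0.013). Of the genes of their level classes, 52.6% (Kif5a), 85.2% (Kif5c) and 55.9% (Kif5b) were at least as far apart. The neuronal pair summed to 2.05 times Kif5b with the control virus and 1.94 times with Gata1. Over the 3 genes the sum was 157 and 156 FPKM.

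Among kinesin-2 motors, Kif3a stood at 44.0 and 41.7 FPKM (−0.075). It pairs with Kif3b or Kif3c. With Kif3b and the accessory protein KAP3 it forms a heterotrimer, which drives axonal transport and the building of cilia. Kif3c stood at 22.5 and 21.3 FPKM (−0.077) and Kif3b at 21.8 and 21.9 FPKM (0.0039). Kifap3, the gene of KAP3, stood at 57.8 and 58.4 FPKM. Of the trimer, Kif3a was thus slightly lower, while Kif3b and Kifap3 (0.013) lay near 0. Kif17, a dendritic motor that carries NMDA receptor subunits, was low, at 2.47 and 2.21 FPKM (−0.11). The kinesin-4 motors Kif21a, known from eye muscle innervation and axonal growth, and Kif21b, a dendritic motor and regulator of microtubule growth, stood at 22.9 and 21.6 FPKM (−0.080) and at 23.1 and 22.3 FPKM (−0.054).

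Mitotic kinesins went both ways. Of 13 measured, 8 were lower, beside 54.7% of all genes, and 5 higher, with a range of log2 ratios from −0.13 to 0.20. Their median was −0.0051. It turned to 0.0075, with 6 lower, when ratios were centred on the median of all genes, where 50% of all genes are lower. None was 1.2-fold apart, beside 7.27% of all genes and 17% of those between 1 and 5 FPKM. The sum of their FPKM differed by 1.39%. Among mitotic kinesins with a CHR near the start, Kif4, Kif22, Kif23 and Kif18b were higher, and Kif11, Kif15, Kifc1 and Kifc5b lower. Kif20b (−0.0042) turned to 0.0084 with centring. A relation of the motif to the ratios was not tested.

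The highest log2 ratio of the mitotic group was that of Kif4. This chromokinesin, which shortens the central spindle's microtubules, stood at 4.03 FPKM with the control virus and 4.78 FPKM with Gata1 (0.20, an FPKM ratio of 1.19). Of the 3339 genes between 1 and 5 FPKM, 26.0% were at least as far apart. Kif22, a chromokinesin that pushes chromosome arms from the poles, stood at 7.74 and 8.73 FPKM (0.16). Kif23, the motor of the centralspindlin complex, stood at 4.61 and 5.12 FPKM (0.12). Kif18a, which limits chromosome oscillations, stood at 2.72 and 3.00 FPKM (0.10), and Kif18b, a depolymerase of astral microtubules, at 4.003 and 4.14 FPKM (0.038).

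Among the lower members, Kif2c, the centromeric depolymerase MCAK, stood at 5.85 and 5.24 FPKM (−0.13). Kif20a, a motor of late mitosis and cytokinesis, stood at 5.18 and 4.73 FPKM (−0.11). The minus-end motor Kifc1, which focuses spindle poles, stood at 7.75 and 7.61 FPKM, and the similar gene Kifc5b at 2.78 and 2.53 FPKM. Together they summed to 10.5 and 10.1 FPKM. Kif11, the bipolar motor that drives spindle poles apart, stood at 6.86 and 6.59 FPKM (−0.050), and Kif15, which can share that task, at 2.72 and 2.57 FPKM (−0.059). The cytokinesis motors Kif20b, at 1.73 and 1.72 FPKM, and Kif14 were level to within −0.0051. Kif14 turned to 0.0075 with centring.

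The other kinesins were mostly higher. Of 11 measured, 9 were higher in the Gata1 library, beside 45.3% of all genes, with a median of 0.029, and none was 1.2-fold apart, beside 7.27% of all genes. Kif19a, a depolymerase that sets the length of motile cilia, stood at 1.39 FPKM with the control virus and 1.80 FPKM with Gata1, and Kif6, a kinesin of ependymal cilia, at 1.12 and 1.45 FPKM. Their FPKM ratios of 1.30 and 1.29 were the highest of the family and pass 1.2-fold with a pseudocount of 0.1 FPKM, where 10.8% of all genes do. With the pseudocount of 1, 21.0% and 25.4% of genes at their level were at least as far apart. Kif24, which holds back cilium formation at the mother centriole, stood at 2.03 and 2.30 FPKM (0.12), and Kif27 at 1.83 and 2.03 FPKM (0.099). Kif7, a regulator of Hedgehog signalling at the cilium tip, stood at 3.31 and 3.40 FPKM, and Kif9, a kinesin of motile cilia, at 4.16 and 4.24 FPKM.

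The abundant members of this group scarcely differed. Kif2a, a microtubule depolymerase that trims axon branches, stood at 28.3 and 28.9 FPKM (0.032). The minus-end motors Kifc3 and Kifc2 stood at 21.96 and 21.4 FPKM and at 19.8 and 20.1 FPKM. Kif26a, which lacks motor activity and acts in growth factor signalling, stood at 5.25 and 5.28 FPKM, and Kif26b was the lowest of the family by ratio, at 1.44 and 1.21 FPKM (−0.14). Of the 41 kinesins, 9 overlap a protein-coding gene in RefSeq, where fragments may be assigned to either: Kif2a, Kif5a, Kif7, Kif18a, Kif19a, Kif20a, Kif21a, Kifc2 and Kifc3. Kif19a overlaps Btbd17, and Kif5a overlaps Dctn2, itself a dynactin gene.

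Genes that work with the motors were compared in the same way. Of 28 light chains and cargo adaptors, 22 (78.6%) were lower, beside 54.7% of all genes, with a median of −0.055 beside −0.013. The only one 1.2-fold apart, beside 7.27% of all genes and 17% of those between 1 and 5 FPKM, was Klc3. This kinesin light chain gene, named after its values were seen, was higher, at 3.66 and 4.71 FPKM (0.29). The furthest apart at a mean of at least 5 FPKM were Rhot2, the mitochondrial GTPase Miro2 that links mitochondria to motors (18.3 and 15.5 FPKM), Madd, an adaptor of Kif1a and Kif1b (14.4 and 12.9 FPKM), and the liprins Ppfia2 (8.41 and 7.49 FPKM) and Ppfia1 (12.98 and 14.4 FPKM). Of 31 dynein and dynactin genes, 19 (61.3%) were lower, which is near the 54.7% of all genes, with a median of −0.023. The furthest apart were the light chain genes Dynlt1a (10.5 and 8.35 FPKM), Dynlt1f (19.05 and 15.87 FPKM) and Dynlrb2 (11.9 and 10.5 FPKM), and Dctn1, the p150 subunit of dynactin (67.6 and 60.6 FPKM). Dynlt1a and Dynlt1f are near-identical copies of a gene family, so their split is uncertain. Of 26 spindle and cytokinesis partners, 10 (38.5%) were lower, beside 54.7% of all genes, with a median of 0.020. Cenpf stood at 4.94 and 3.65 FPKM (−0.35), Cdc20 at 14.1 and 12.4 FPKM (−0.17) and Cdca8 at 12.2 and 11.1 FPKM (−0.12). Ect2, which Kif23's complex recruits, stood at 5.43 and 6.23 FPKM (0.17). Cenpf and, in the dynein list, Dynlt1a were the only ones of their lists 1.2-fold apart, beside 7.27% of all genes.

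**Figure D4:**
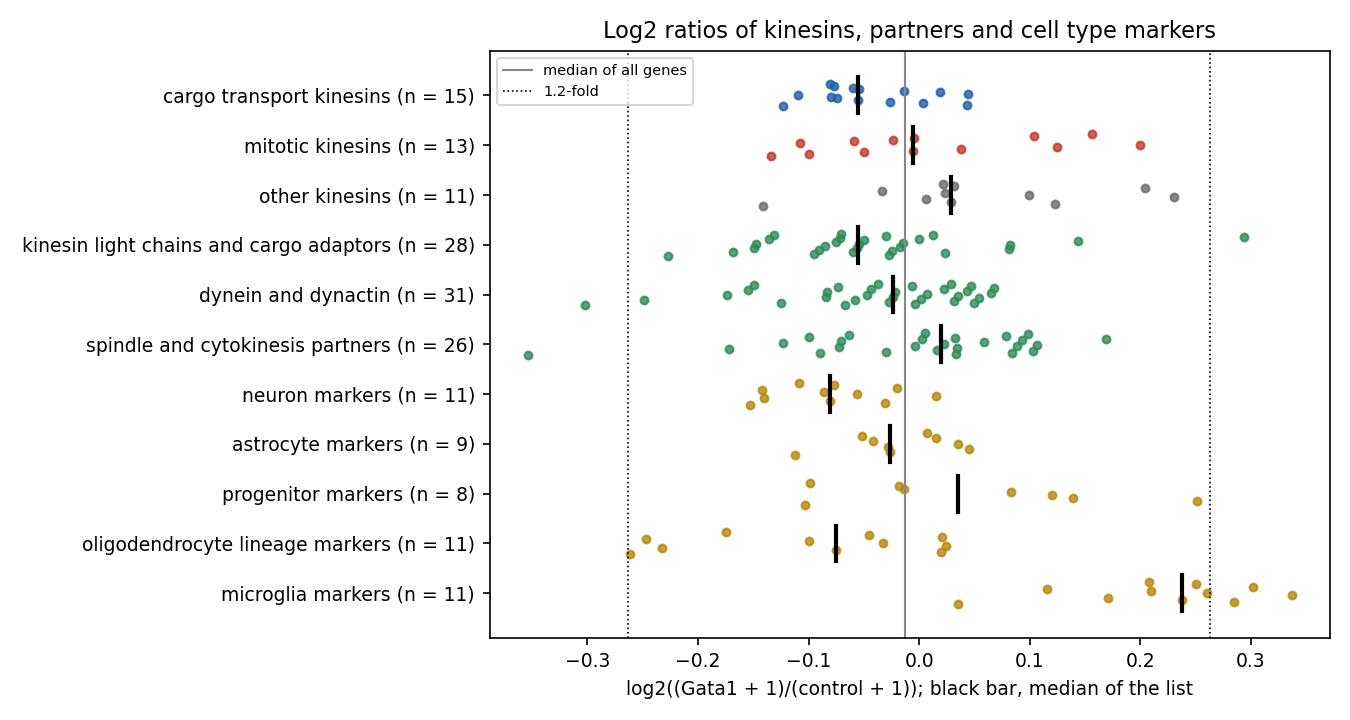
Log2 ratios of the measured members of 11 lists, with 1 point per gene, black bars at list medians, a grey line at the median of all genes (−0.013) and dotted lines at a 1.2-fold difference. The medians of transport kinesins (−0.055) and their adaptors (−0.055) lie below that of all genes. So do those of neuron (−0.081), oligodendrocyte lineage (−0.075) and astrocyte markers (−0.027) and of dynein and dynactin (−0.023). The medians of the remaining lists lie above that of all genes, with microglia markers the highest (0.24).

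Cell type markers also differed between the libraries. The counts of markers stand beside 54.7% of all genes lower and 45.3% higher. Of 11 neuron markers, 10 were lower, with a median of −0.081, and their summed FPKM went from 868 to 832, a difference of −4.19%, beside −3.65% for the transport kinesins. All 11 measured microglia markers were higher, with a median of 0.24 and a sum of 572 and 674 FPKM, while the microglial markers P2ry12 and Tmem119 stood at 0.178 and 0.117 FPKM and at 0.0738 and 0.154 FPKM. Of 11 oligodendrocyte lineage markers 8 were lower (median −0.075, sum 311 and 296 FPKM, a difference of −4.68%). Of 9 astrocyte markers 5 were lower (−0.027, sum 2475 and 2470 FPKM), and of 8 progenitor markers 4 (0.035, sum 1541 and 1635 FPKM), shares near that of all genes. Of 4 pericyte and fibroblast markers 3 were lower (−0.066), and 1 endothelial marker was measured. The part of these cell types in the kinesin values was not tested, and in bulk mRNA fewer cells of a type and less RNA per cell cannot be told apart.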

How the data were processed

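The deposited mRNA values are FPKM, per the file headers, with 1 library per condition. Libraries were made with a stranded kit, per the labels' protocols. The submitters' processing notes name TopHat2 2.1.1, Cufflinks 2.1.1, Cuffdiff 2.1.1, Bowtie 1.1.2, HTSeq 0.6.1p1, edgeR 3.10.2, BWA and HOMER and builds mm9 and mm10, without roles. How strand was treated in counting, and any scaling between libraries, are not given in the sources used here. The small RNA and chromatin samples were not used here.

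Of 40993 rows, 6 without a symbol (0.0122% and 0.0113% of FPKM) were left out, and the highest-mean row was kept for the 64 symbols with several. Log2 ratios used a pseudocount of 1 FPKM and a minimum mean of 1 FPKM. The counting was also run on simulated data. The settings and outcome of that run are not given here, so it is no check on the counts reported. No depth could be given. Promoter windows came from RefSeq (GRCm38.p6). Motifs were searched as exact letters, and a gene was counted if any of its windows matched. Computation used Python 3.11.15 and pandas 2.3.3. Members, lists, limits and motifs were chosen with earlier results of these data known. All measured kinesins are named, with the 4 partners furthest apart per list at a mean of at least 5 FPKM (1 FPKM for the spindle list), and Klc3, Kifap3, Mki67 and the markers beside results.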

Additional observations from a re-analysis of the deposited data

How the results depend on the processing

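Alternatives were a pseudocount of 0.1 FPKM, centring on the median of all genes, a minimum mean of 5 FPKM or none, summed rows, the 8 core axonal kinesins, and the mitotic list without Kifc5b. Over 37 recomputed list medians the largest shift was 0.032 (log2), and 2 turned sign with centring, those of the mitotic and of all kinesins (both −0.0051 to 0.0075). With a pseudocount of 0.1, 2 kinesins (Kif19a at 0.35 and Kif6 at 0.34) were 1.2-fold apart, beside 10.8% of all genes. At a limit of 1.1-fold, chosen after seeing the data, 5 of 39 were (12.8%, against 24.4% of all genes): Kif4, Kif22, Kif6, Kif19a and Kif26b. At a minimum mean of 5 FPKM 3 of 4 mitotic kinesins were lower, with a median of −0.037. The share of all genes lower was not recounted at that minimum, so this count has no background. With the 8 core axonal kinesins 6 were lower, beside 54.7% of all genes. The mitotic to transport ratio of sums was then 0.117 (control) and 0.123 (Gata1), against 0.0975 and 0.103. Without Kifc5b it was 0.0927 in the control. Centring turned the sign of Kif14 and Kif20b, both near 0. No paired analysis was possible because each condition has 1 library. Depth is unknown, so counting error could not be given.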

Other observations

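The CHR letters TTTGAA were also searched in the promoter windows of the genes that work with the motors. Of 23 spindle and cytokinesis partners with a window, 16 (69.6%) held them, 15 of these within 50 bases of the start, among them Prc1, which Kif4 binds at the central spindle, Racgap1, the partner of Kif23, and Plk1. Of 24 light chains and cargo adaptors 2 did (8.33%), Spag9 and Madd, and of 24 dynein and dynactin genes 1 did (4.17%), Dctn1, with no match within 50 bases of the start in these 3. The share over all genes with a window was 20.2%, and 5.72% within 50 bases. Among kinesins outside the mitotic group, Kif1a, Kif26b and Kif27 held the letters, in Kif26b at bases −9 to −4 from the start.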
